A study of Mus musculus with 6 samples.

Results

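The canonical histone genes lie in clusters, and the 4 mouse clusters carry the symbol prefixes Hist1h, Hist2h, Hist3h and Hist4h. In the 6 single cell libraries, 67 of 31053 features had such a symbol, and the 62 of them with at least 20 unique molecular identifiers (UMIs) summed over the libraries were taken as members. A UMI is one counted RNA molecule. The members held 117242 of 156055938 UMIs. The UMI total that chose them is therefore a description and not a result: just inside the threshold were Hist1h2ah with 23 UMIs and Hist1h4k with 33, and outside it were Hist2h2aa2 with 11, Hist1h1t with 6, Hist1h2aa with 5, and Hist1h2ba and Hist1h2bq with 0.

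The libraries were labelled GC B cells and came from mice that all carried Cgamma1-Cre, a recombinase driven from the immunoglobulin gamma 1 locus and active in B cells that enter the germinal center (GC). There were 3 libraries of the WT control and 3 with heterozygous loss of Smc3, written Smc3 +/-. Smc3 is a core ATPase of cohesin, the ring complex that holds sister chromatids together and folds chromosomes. The study sorted splenic cells after immunization with sheep red blood cells. Neither age nor the number of mice behind each library is given in the labels, so p-values measure only the spread between libraries. Deletion was limited to cells in which the Cre had acted, and other cells in the sort keep both alleles.

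Histones package DNA. H2A, H2B, H3 and H4 form the nucleosome core, and the linker histone H1 binds where DNA enters and leaves it. The clustered genes are transcribed while DNA is replicated, and their messages are the best known mRNAs that end in a short stem-loop in place of a poly(A) tail. Stem-loop binding protein (Slbp) holds this structure through processing, export and translation, and the messages are destroyed when replication stops. A few clustered genes also give polyadenylated messages, which persist in cells that no longer divide. GC B cells are among the fastest dividing cells of the mouse, and the libraries described here were primed with oligo(dT), which needs a run of A in the RNA.

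Depth and composition differed between libraries. The libraries held 5223325 to 35354257 UMIs each before filtering. After it, 20809 of 22939 barcodes were kept, from 1011 to 4963 a library. Smc3 +/- replicate 2 stood apart: 51.9% of its UMIs came from immunoglobulin genes against 2.37% to 3.90% in the others, 1743 of its 3558 cells were of the plasma lineage, and its log-level correlation with the others was 0.789 to 0.805 where the rest reached 0.969 to 0.992. Its cells called GC B-like also carried fewer GC B marker UMIs than the other libraries. In S cells their summed level was 517 CPM, that is UMIs of a gene per 1000000 UMIs of the same cells, against 2178 to 2827 elsewhere, all 10 markers being detected in each library, and the naive or memory B markers summed to 858 against 126 to 160. Values with and without this library are therefore given where it changes them. Any 2 libraries shared 4 to 43 cell barcodes, at most 0.946% of the smaller library. Smc3 itself did not separate the labels: in GC B-like cells it read 167, 174 and 162 CPM in WT and 159, 121 and 181 in Smc3 +/-, and 3′ counts do not test the deleted exon.

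The members were unevenly counted. Of the member UMIs, 40.9% came from 16 H2A genes, 33.3% from 5 H1 genes, 11.5% from 13 H4 genes, 10.5% from 16 H2B genes and 3.90% from 12 H3 genes. Hist1h2ap alone, an H2A gene, held 24539 UMIs, followed by the linker histone gene Hist1h1b with 21703 and the H2A gene Hist1h2ae with 10586. Of the 62 members, 50 lie on chromosome 13 between positions 21715763 and 23764406 (GRCm38), 9 on chromosome 3, 2 on chromosome 11 and 1 on chromosome 6, and 59 have a single exon.

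The 3′ end is where these libraries count, so the stem-loop sites of 7 of the 15 most counted members, chosen to show different stems, loops and runs of A, are shown with the 12 bases before them. They were read from the annotated mouse transcripts (GENCODE, GRCm38), and capitals mark the 16 bases of the stem-loop, a 6 base-pair stem with a loop of 4.
Hist1h2ap: aaaaaaaaaaaaGGCTCTTTTCAGAGCC
Hist1h2ae: aaaaaaaacaaaGGCTCTTTTCAGAGCC
Hist1h1e: caacaacccaaaGGCTCTTTTCAGAGCC
Hist1h4i: atgctacttaaaGGCCCTTTTTAGGGCC
Hist1h1c: aacaatccaaaaGGCTCTTTTCAGAGCC
Hist1h4d: ccaaaaaccaaaGGCCCTTTTCAGGGCC
Hist2h2ac: cgaatccaaaaaGGCTCTTTTTAGAGCC
Hist1h2ap (chr13:21833026-21833507, minus strand, 1 exon) has an unbroken run of 12 A directly before its stem-loop and ends 3 bases after it. In Hist1h2ae (chr13:23570517-23571220, minus strand) an 8 A run precedes the loop and the annotated transcript goes on for 151 bases. Hist1h2ap, Hist1h2ae and 1 further member have such a run of at least 8 A in the 30 bases before the stem-loop, and 39 members with a stem-loop do not. The H4 genes Hist1h4i (chr13:22040636-22041362, minus strand) and Hist1h4d carry GGCC stems, and Hist2h2ac on chromosome 3 has a loop letter that most members lack.

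Across the members, 42 annotated transcripts hold a stem-loop and 20 do not. Those without one include Hist1h1b (chr13:21779883-21780625, minus strand, 743 bases) and Hist1h2bc (chr13:23684199-23692908, plus strand, 2 exons), an H2B gene. In 25 of the 42 the stem-loop reads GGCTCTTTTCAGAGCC, and in 7, all H4 genes, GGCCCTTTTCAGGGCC. By where the annotated transcript stops, 20 members end within 60 bases of the stem-loop (30.3% of member UMIs), 22 run more than 60 bases past it (42.2%) and 20 have no stem-loop (27.5%). A polyadenylation signal stood in the last 50 bases of 1, 10 and 3 members of these classes.

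Near-identical copies limit what a single symbol means. Only 4 members are made wholly of 90-base stretches found in no other annotated transcript, Hist1h1b among them, and in 26 members fewer than 50% of these stretches are unique. For Hist1h2ap 7.63% of them are unique and none in its last 300 bases, so its level is uncertain with respect to the other H2A copies, and reads that match several genes are not counted by Cell Ranger. The last 300 bases of Hist1h1e overlap Hist1h2be on the same strand. Levels are not divided by transcript length, since 1 molecule gives 1 UMI at its 3′ end.

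Promoters, from 250 bases before to 50 after the start, were matched for 57 of the 62 members (RefSeq, GRCm38.p6). CCAAT, on either strand, was found in 48 of them (84.2%) against 37.4% of 32851 promoters of all genes, in every matched H1, H2A, H2B and H3 promoter and in 3 of 12 H4 promoters. TATAAA was found in 33 (57.9%) against 13.6%. The octamer ATTTGCAT stood in 11 (19.3%) against 1.74%, 6 of them H2A and 5 H2B genes. AAACACA stood in 6 (10.5%), near the 7.18% of all promoters, and 4 of these were among the 5 H1 promoters. Matches to different strings, or to a string and its reverse, can share letters at their ends, and a match is a description only. The promoters of Hist1h2ap (chr13:21833426-21833725, minus strand), of Hist1h1b (chr13:21780576-21780875, minus strand) and of Hist1h2ac (chr13:23683910-23684209, minus strand) are shown with these motifs in capitals, the last because it reaches the start of Hist1h2bc, which is read in the other direction.
Hist1h2ap promoter: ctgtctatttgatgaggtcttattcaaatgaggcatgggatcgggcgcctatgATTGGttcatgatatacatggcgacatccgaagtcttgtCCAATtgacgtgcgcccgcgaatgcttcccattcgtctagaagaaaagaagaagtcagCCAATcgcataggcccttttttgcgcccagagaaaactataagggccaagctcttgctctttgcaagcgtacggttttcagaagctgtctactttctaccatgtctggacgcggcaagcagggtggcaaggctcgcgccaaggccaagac
Hist1h1b promoter: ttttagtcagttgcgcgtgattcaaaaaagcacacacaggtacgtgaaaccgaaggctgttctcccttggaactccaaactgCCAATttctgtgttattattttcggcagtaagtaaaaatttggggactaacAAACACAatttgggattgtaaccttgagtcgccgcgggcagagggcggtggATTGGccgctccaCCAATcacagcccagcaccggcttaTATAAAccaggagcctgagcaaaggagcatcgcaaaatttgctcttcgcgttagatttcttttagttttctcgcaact
Hist1h2ac promoter: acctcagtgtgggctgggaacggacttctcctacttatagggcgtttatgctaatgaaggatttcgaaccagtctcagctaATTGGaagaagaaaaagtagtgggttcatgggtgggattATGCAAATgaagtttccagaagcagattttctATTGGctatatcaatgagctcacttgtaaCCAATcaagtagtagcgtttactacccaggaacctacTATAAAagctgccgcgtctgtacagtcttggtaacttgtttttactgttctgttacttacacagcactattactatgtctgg
The starts of Hist1h2ac and Hist1h2bc lie 251 bases apart. They are 1 of 11 such head-to-head pairs of members within 1000 bases, which also include Hist1h2ap with Hist1h2br and Hist1h2ae with Hist1h2bg.

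GC B-like cells were a class of 6 clusters, clustered without histone genes. They were named from lists of S-phase, centroblast, centrocyte and Myc-linked genes, some of which are also phase score genes. The GC B markers counted above did not enter the naming. In GC B-like cells the members summed to 976, 1309 and 1061 CPM in WT and 641, 874 and 914 in Smc3 +/-. Hist1h2ap read 385, 337 and 199 CPM in WT and 149, 236 and 162 in Smc3 +/-. Hist1h1b read 177, 240 and 223 in WT and 141, 165 and 189 in Smc3 +/-. WT replicate 1 was highest for Hist1h2ap but lowest of the WT libraries for Hist1h1b, and the 2 genes changed rank from library to library.

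**Figure D1:**
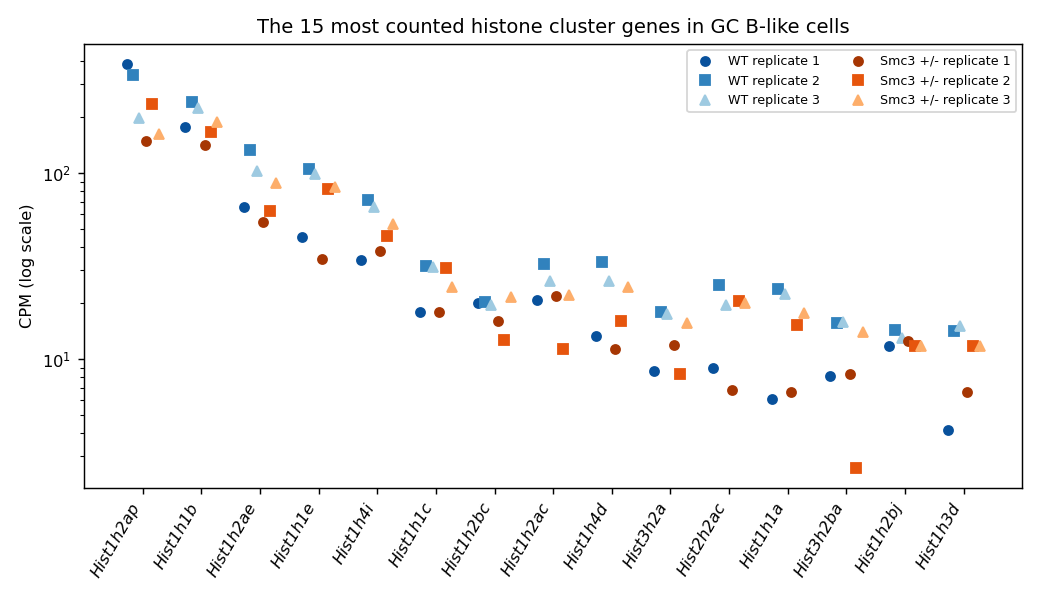
Level in CPM (log axis) of the 15 most counted histone cluster genes in GC B-like cells, 1 point per library, WT in blue and Smc3 +/- in orange, with shapes for the replicate number. Levels span from over 100 for Hist1h2ap to about 10 for Hist1h3d, and both replicate 1 libraries (circles) lie low for Hist1h1e, Hist2h2ac and Hist1h1a.

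The first comparison asked how the members followed the cell cycle. GC B-like cells with at least 2000 UMIs (11406) were scored for published S and G2M gene sets that hold no clustered histone gene, after thinning each cell to 2000 UMIs. Cells with neither score above 0 are called G1 here (813), and the rest S (4028) or G2M (6565) by the higher score. Centrocyte markers summed to 2458 to 3701 CPM in G1 cells, against 627 to 1183 in S and 488 to 1098 in G2M. In comparisons with G1, phase and GC state therefore cannot be told apart. Member UMIs were low in G1 and higher in both other phases. They summed to 78.8, 179 and 195 CPM in WT and 144, 243 and 153 in Smc3 +/- in G1, to 875, 1009 and 847 and 510, 861 and 779 in S, and to 1128, 1547 and 1213 and 737, 1060 and 1032 in G2M. Every library stood higher in S than in G1 and higher in G2M than in S.

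For Hist1h2ap the 6 libraries read 6.56, 6.97 and 11.3 (WT) and 15.3, 39.9 and 4.75 (Smc3 +/-) CPM in G1. In S they read 351, 236 and 148 and 108, 226 and 127. In G2M they read 449, 414 and 234 and 180, 296 and 190. The lowest S value was thus above the highest G1 value, and the G1 level was highest in Smc3 +/- replicate 2. With edgeR's quasi-likelihood test and the library as a block, Hist1h2ap rose by a log2 fold change of 4.02 (SE 0.18, adjusted p = 2.1e-22) from G1 to S, and S lay below G2M by -0.64 (SE 0.05, adjusted p = 4.5e-14).

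Across all genes, 39.6% of 8168 passed an adjusted p of 0.05 from G1 to S, 20.6% upward and 19.0% downward. Of the 62 members 23 passed the filter on low counts, and of these 21 rose, 1 fell and 1 was not called (median log2 fold change 2.41 against -0.03 over all genes tested). The filter takes its counts from all phases, so a member with few UMIs in G1 passes through S and G2M, and the count over tested members is no measure of all 62. With no filter, 33 of 62 rose and 1 fell. Without WT replicate 1 or without Smc3 +/- replicate 2, 41 and 42 members passed the filter and 30 rose in each case. Leaving out each library in turn, 2680 to 3387 genes were called over all genes, against 3234 with every library. Counted by library without a test, 29 of 62 members were above their G1 level in both S and G2M in every library. The share of all genes is not given for this count or for the fit with no filter, so both only describe the members. From G1 to G2M 22 of 23 rose and 1 fell, where 44.5% of all genes were called, and between S and G2M 21 of 23 were lower in S, where 48.0% were called and 23.4% were lower. With DESeq2 14 were called in this last comparison, and without Smc3 +/- replicate 2 edgeR called 33 of 42.

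Among the linker histone genes, Hist1h1a had 0 UMIs in G1 cells of all libraries together, and 547 in S and 1196 in G2M. Against the limit of 3 counts over the group, its pooled level was at least 23.1-fold higher in S and at least 26.4-fold higher in G2M, counting error only. Hist1h1b rose from 0, 7.97 and 18.4 CPM in WT and 18.3, 21.5 and 0.95 in Smc3 +/- in G1 to 184, 208 and 206 and 127, 186 and 191 in S (log2 fold change 4.21, SE 0.18, adjusted p = 4.8e-23). Hist1h1c, an H1 gene also expressed in cells that do not divide, rose less, by 0.87 (SE 0.20, adjusted p = 0.00048), and from pooled levels of 14.1 in G1 to 25.1 in S. Leaving out each library in turn gave 0.67 to 1.36 for Hist1h1c. All 5 H1 members rose from G1 to S.

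Among H2A genes 8 of 9 tested rose from G1 to S, and all 9 were lower in S than in G2M. Hist1h2ae rose by 2.87 (SE 0.19, adjusted p = 6.7e-17), and Hist1h2ac by 1.24 (SE 0.26, adjusted p = 0.00011). Hist1h2ac then rose further, S lying below G2M by -1.18 (SE 0.07, adjusted p = 9.7e-18), the widest gap of any tested member. Hist3h2a, on chromosome 11, was the member not called from G1 to S (0.15, SE 0.22, adjusted p = 0.63). Of 5 H2B genes tested 4 rose and 1 fell, though Hist1h2bm had only 2 UMIs in all G1 cells together, a pooled fold of 16.65 in S with a 95% counting interval of 4.56 to 138. Both H4 genes among the most counted rose, Hist1h4d, which had 4 UMIs in all G1 cells, by a pooled fold of 16.1 with a counting interval of 6.25 to 59.4, and Hist1h4i by 1.75 (SE 0.15, adjusted p = 5.9e-13), as did the only H3 gene tested, Hist1h3d, by 1.56 (SE 0.33, adjusted p = 0.00018).

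Hist1h2bc was the 1 member that fell. It read 19.7, 20.9 and 28.7 CPM in WT and 27.5, 9.21 and 38.0 in Smc3 +/- in G1, against 15.95, 16.4 and 15.8 and 12.4, 16.4 and 16.7 in S. In 5 of 6 libraries the S level was below the G1 level, the exception being Smc3 +/- replicate 2. The log2 fold change from G1 to S was -0.79 (SE 0.17, adjusted p = 0.00016). From G1 to G2M it was -0.38 (SE 0.16, adjusted p = 0.042), a call that was lost under 9 of the alternatives tried, among them DESeq2. Counting a haemoglobin-led cluster of B cells without a name as GC B-like turned it to 0.24.

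To see where between S and G2M the members peaked, the cells were split by which scores were above 0, a split chosen after the phase results had been seen. There were 1170 cells with the S score only, 2858 with both and S higher, 3450 with both and G2M higher, 3115 with the G2M score only and 813 with neither. Member UMIs peaked in cells with both scores and G2M higher, at 1319, 1878 and 1492 CPM in WT and 861, 1337 and 1249 in Smc3 +/-. Cells with the S score only were low, at 221 to 314 in WT and 163 to 497 in Smc3 +/-. Cells with the G2M score only lay between, at 811, 1032 and 857 and 515, 817 and 718. In each library the summed level was highest where both scores were up and G2M higher.

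**Figure D2:**
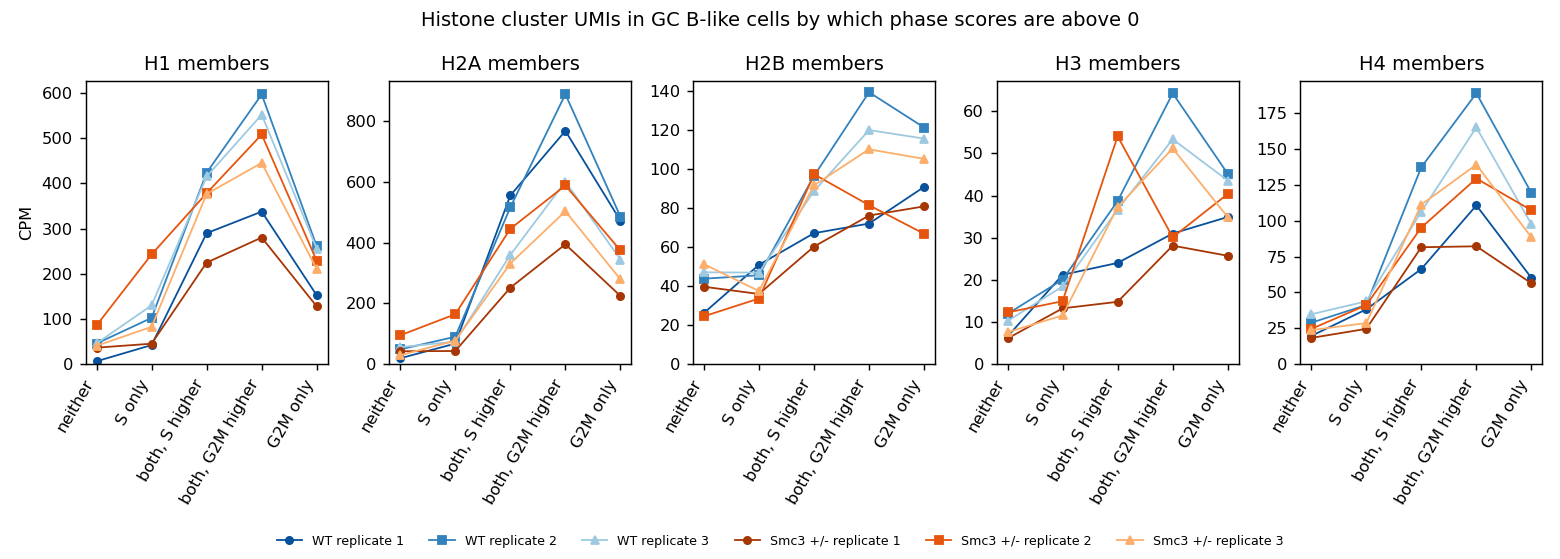
Level in CPM of the H1, H2A, H2B, H3 and H4 members in GC B-like cells (vertical axis, 1 panel a family with its own scale), in cells grouped by which phase scores are above 0, 1 line per library. The H1, H2A and H4 lines of all 6 libraries peak where both scores are above 0 and G2M is higher, and the H2B and H3 lines of Smc3 +/- replicate 2 peak 1 group earlier.

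By their mean over libraries, 43 members were highest in cells with both scores and G2M higher, 13 in cells with the G2M score only, 5 in cells with both and S higher and 1 in cells with the S score only. Only 9 members had the same highest group in all 6 libraries. Of the 51 members with at least 100 UMIs the numbers were 37, 10, 4 and 0. Against cells with the G2M score only, cells with both scores and G2M higher had 20 of 25 tested members higher and 1 lower (43.4% of all genes called, 22.0% higher and 21.4% lower). Against cells with the S score only 24 of 25 were higher (38.0% called, 20.3% higher), and against cells with both scores and S higher 19 of 25 (30.1% called, 14.7% higher). The group compared in all these fits is the one where the summed members peaked in the same cells. The counts of higher members therefore partly restate that peak and are no independent test of it. A member with few UMIs in the other groups can pass the filter through this group, so the counts over tested members do not measure all members.

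Hist1h1b and Hist1h1a fell most from the peak to the cells with the G2M score only, with log2 differences of 1.38 (SE 0.08, adjusted p = 2.3e-21) and 1.34 (SE 0.11, adjusted p = 8e-15), and Hist1h2ap by 1.07 (SE 0.07, adjusted p = 4.3e-19). Hist1h2ac (0.06, SE 0.08, adjusted p = 0.55) and Hist3h2a (0.01, SE 0.10, adjusted p = 0.95) were not called. Hist1h2bc went the other way, being lower at the peak of the others by -1.01 (SE 0.09, adjusted p = 2.5e-14). It read 32.1, 31.1 and 29.5 CPM in WT and 26.6, 10.9 and 34.3 in Smc3 +/- in cells with the G2M score only, against 14.3, 16.6 and 14.1 and 12.1, 8.86 and 14.4 in cells with both and G2M higher, and so was higher in the former in all 6 libraries.

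**Figure D3:**
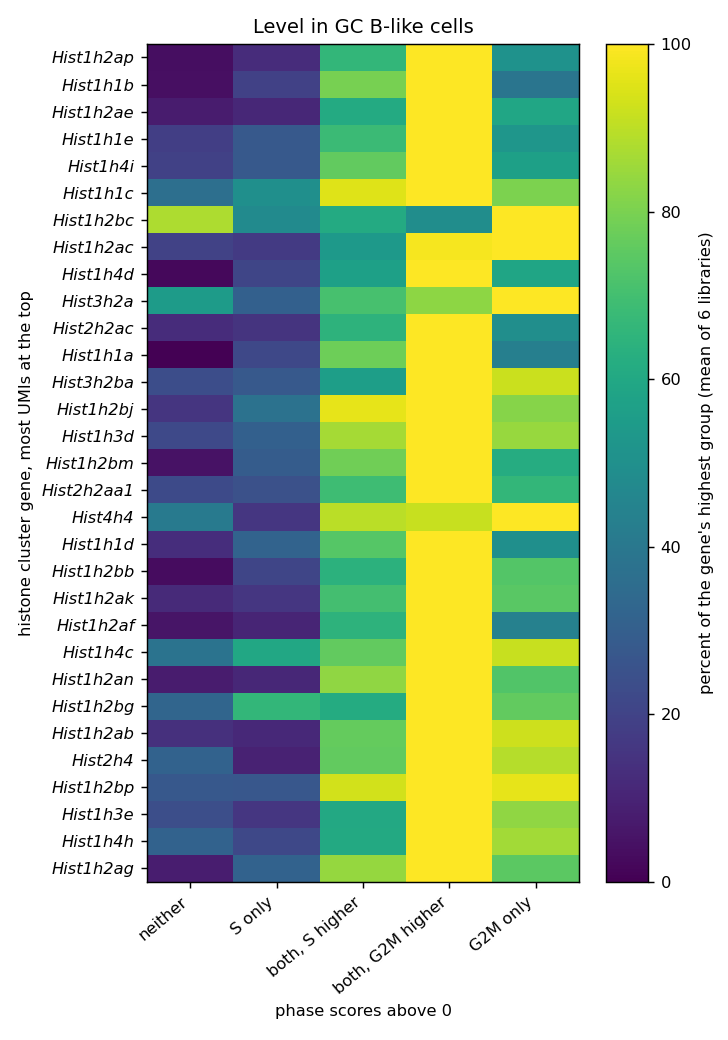
Mean level over 6 libraries of the 31 members with at least 500 UMIs (rows, most counted first) in GC B-like cells grouped by phase scores above 0 (columns), as a percent of each gene's highest group. Most rows are brightest where both scores are above 0 and G2M is higher; Hist1h2bc is brightest in cells with the G2M score only and in cells with neither.

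The share of cells with at least 1 UMI gave the same order. With each cell thinned to 2000 UMIs, Hist1h2ap was seen in 3.42% (exact 95% interval 2.45 to 4.63) of cells with the S score only, 26.9% (25.3 to 28.5) of cells with both and S higher, 46.6% (44.9 to 48.3) of cells with both and G2M higher and 19.6% (18.2 to 21.0) of cells with the G2M score only. In cells with neither it was 1.23% (0.591 to 2.25). Without thinning these shares were 9.92%, 49.2%, 76.6%, 35.6% and 2.71%, at median depths of 5376, 6686, 7953, 6164 and 4174 UMIs. T cell-like cells with neither score gave 2.42% (0.502 to 6.91, 124 cells, median depth 2580 UMIs) and naive or memory B-like cells 1.02% (0.492 to 1.87). The share in G1 GC B-like cells lay within both intervals and is not read as expression particular to them. Whether these shares are free RNA or expression was not tested. Intervals cover counting error only.

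The second comparison set B-cell states beside each other. Among clusters, the members summed highest in cluster 2, a centroblast-like (CB-like) cluster whose leading genes include Hist1h2ap and Hist1h2ae, with 1894 ± 459 CPM (SD, n = 6). Cluster 6, a plasma-lineage cluster, read 178.5 CPM in WT replicate 3 (25 cells) and 82.7 in Smc3 +/- replicate 2 (1385 cells), and the other libraries had only 12 to 16 cells each in it. Another CB-like cluster, cluster 5, led by the mitotic genes Ccnb2 and Cdc20, was low at 273 ± 43.9. In this cluster Hist1h2bc read 71.7, 69.5 and 81.1 CPM in WT and 66.1, 55.2 and 92.4 in Smc3 +/-, while in the other GC B-like clusters its means ran from 7.91 to 18.02. Its lowest library in cluster 5 was above its highest in every other GC B-like cluster. Hist1h2ac, its head-to-head neighbour, read 10.7 ± 5.09 in cluster 5 and was highest in cluster 7, another CB-like cluster, with 48.4 ± 11.6. Hist1h2bc is among the leading genes of cluster 5, and cluster values are a description.

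Naive or memory B-like cells, which are mostly resting, were compared with centrocyte-like (CC-like) cells, the light zone state of the GC. The members summed to 509, 371 and 308 CPM in WT and 277, 132 and 363 in Smc3 +/- in the former, and to 530, 606 and 503 and 294, 189 and 385 in the latter. CC-like cells were higher in every library. T cell-like cells, which are no B cells, summed to 669, 639 and 338 in WT and 290, 691 and 197 in Smc3 +/-, above naive or memory B-like cells in 5 of 6 libraries, so these sums are not read as expression particular to that state, and the part of free RNA was not tested. Of 8 members that passed the filter, 3 rose and 3 fell in naive or memory B-like cells, where 57.0% of all genes were called. Hist3h2a was higher by 1.20 (SE 0.33, adjusted p = 0.006), Hist1h1c by 1.06 (SE 0.20, adjusted p = 0.00037) and Hist1h2bc by 0.96 (SE 0.27, adjusted p = 0.0075).

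The 3 that fell were Hist1h2ae (-0.92, SE 0.29, adjusted p = 0.012), Hist1h1b (-0.89, SE 0.21, adjusted p = 0.002) and Hist1h2ap (-0.75, SE 0.17, adjusted p = 0.0012). Hist1h2ap read 184, 62.2 and 36.3 CPM in WT and 44.3, 5.38 and 43.7 in Smc3 +/- in naive or memory B-like cells against 259, 144 and 98.7 and 61.3, 30.3 and 67.6 in CC-like cells, lower in each library. Without WT replicate 2 or without Smc3 +/- replicate 3 only 3 members were called, 1 up and 2 down.

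Plasma-lineage cells secrete antibody, and part of them still divide. Against GC B-like cells 9 of 32 tested members rose and none fell, where 44.9% of all genes were called, 22.7% rose and 22.2% fell. The share of members that rose was thus near that of all genes. Hist1h2bc rose most, by a log2 fold change of 2.41 (SE 0.13, adjusted p = 2.8e-07). It read 86.1, 66.1 and 53.8 CPM in WT and 53.2, 16.04 and 66.3 in Smc3 +/- plasma-lineage cells, against 20.1, 20.2 and 19.6 and 16.03, 12.6 and 21.5 in GC B-like cells. Each library was higher in plasma-lineage cells, and Smc3 +/- replicate 2 was the closest to its GC level. These CPM count immunoglobulin UMIs in the total. After scaling between libraries in the genotype fit, Hist1h2bc read 47.5 in plasma-lineage cells of Smc3 +/- replicate 2, within the 37.7 to 75.2 of the others.

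Hist1h1c rose by 2.30 (SE 0.23, adjusted p = 2.1e-05), from 17.8, 31.7 and 31.2 CPM in WT and 17.8, 30.9 and 24.4 in Smc3 +/- GC B-like cells to 128, 97.3 and 65.1 and 73.9, 20.7 and 69.9. The groups did not overlap outside Smc3 +/- replicate 2, whose plasma-lineage level was below its GC level before scaling between libraries. Hist4h4, on chromosome 6, rose by 1.46 (SE 0.36, adjusted p = 0.0072), and Hist1h2bg, Hist3h2a, Hist2h4, Hist1h4c, Hist1h1d and Hist1h4i by 0.68 to 1.37. Hist1h2ap (-0.48, SE 0.31, adjusted p = 0.23) and Hist1h1b (-0.38, SE 0.27, adjusted p = 0.27) were not called. Without Smc3 +/- replicate 2, 13 of 30 tested members rose, and without WT replicate 3, 5 of 31. Over all genes, leaving out each library in turn gave 3194 to 4699 genes called, against 3875 with every library.

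**Figure D4:**
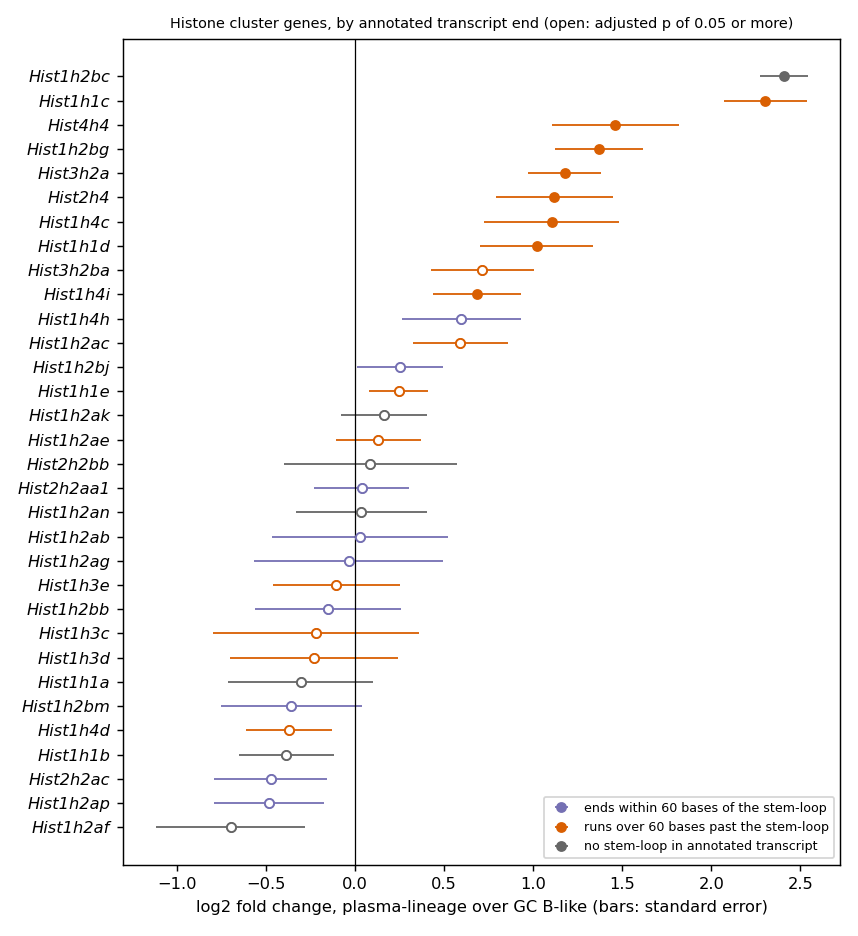
Log2 fold change of plasma-lineage over GC B-like cells (horizontal axis, bars 1 standard error) for the 32 tested members, coloured by where the annotated transcript ends, with open points for members not called. Hist1h2bc and Hist1h1c lie furthest right, at 2.41 and 2.30, and 8 of the 9 called members run over 60 bases past the stem-loop.

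By transcript end, 8 of 16 tested members that run over 60 bases past the stem-loop rose in plasma-lineage cells, with a median log2 fold change of 0.70. Among members ending within 60 bases 0 of 9 did (median -0.04), and 1 of 7 without a stem-loop did (median 0.04), beside a median of -0.05 over all genes tested. From G1 to S the same 3 classes had medians of 1.56, 3.10 and 3.51, with 10 of 11, 6 of 6 and 5 of 6 members rising. The classes were set with results known, and their difference was not tested.

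Within plasma-lineage cells, Hist1h2ap and Hist1h2bc were counted by phase score without a test. Hist1h2ap was seen in 0.0633% (exact 95% interval 0.00160 to 0.352) of 1581 thinned cells with neither score and in 17.8% (14.5 to 21.6) of 471 cells with S or G2M called, at median depths of 14400 and 15800 UMIs. Unthinned shares were 2.09% and 42.04%. Smc3 +/- replicate 2 held 1463 and 272 of these cells, and over libraries the thinned share in S or G2M cells ran from 11.4% in Smc3 +/- replicate 2 to 33.3% in WT replicate 2. Hist1h2bc was seen in 3.54% and 7.22% of the same cells after thinning.

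The third comparison set Smc3 +/- beside WT, the question of the study. With edgeR no gene, and so no member, passed an adjusted p of 0.05 in all kept cells (percent called 0), in GC B-like S or G2M cells (percent called 0 in each), in G1 (percent called 0) or in plasma-lineage cells (percent called 0). At an unadjusted p under 0.05 there were 184, 191, 182, 123 and 243 genes, of which 2, 2, 2, 0 and 2 were members, and DESeq2 called 0 members in each. In simulated counts with a log2 change of 1, the edgeR fit recovered 0 of 200 changed genes in all kept cells and 0 in plasma-lineage cells. It recovered 86 in S, 63 in G2M and 68 in G1, so a missing call does not show that a gene was unchanged.

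Point estimates for members were mostly below 0. In GC B-like G2M cells 51 of 52 tested members were lower in Smc3 +/- (median -0.39 against 0.00 over all genes), in S cells 39 of 43 (median -0.33 against -0.01) and in all kept cells 52 of 58 (median -0.45 against 0.00). In S cells, where same-numbered replicates deviated together, the fit with the replicate number as a block left 28 of 43 lower with a median of -0.10. In G2M cells the block gave 44 of 52 and -0.28. Without Smc3 +/- replicate 1 the S median was -0.01, with 25 of 48 lower, and the G2M median -0.20, with 44 of 58. Without WT replicate 2 they were -0.12, with 29 of 43, and -0.19, with 40 of 48. Without Smc3 +/- replicate 3 they were -0.59, with 40 of 43, and -0.67, with 44 of 49. Without Smc3 +/- replicate 2 they were -0.39, with 41 of 45, and -0.43, with 56 of 58. In all kept cells the median was -0.77 without Smc3 +/- replicate 3 and -0.40 without Smc3 +/- replicate 2. Genes of a family share reads and vary together over libraries, so these counts are not independent.

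By replicate number, the summed members of Smc3 +/- were lower than those of the same-numbered WT library in S by log2 differences of -0.78, -0.23 and -0.12, and in G2M by -0.61, -0.54 and -0.23. In G1 they were 0.87, 0.44 and -0.35. The 3 Smc3 +/- libraries lay below all WT libraries in G2M (737 to 1060 against 1128 to 1547 CPM), and overlapped with them in S and G1. In plasma-lineage cells they read 559, 125 and 892 against 770, 1017 and 1046. These CPM count immunoglobulin UMIs in the total. H3f3b, no member, also read low there in Smc3 +/- replicate 2, at 517 CPM against 1707 to 2488 in the other libraries. Smc3 +/- replicate 2 had 79.5% of its plasma-lineage cells in cluster 6 against 19.3% to 35.3% in the others. Within cluster 10, the other plasma-lineage cluster, the levels were 638, 386 and 1034 in Smc3 +/- and 1072, 1239 and 1329 in WT, with no overlap and with Smc3 +/- replicate 2 lowest. Within cluster 6 they were 82.6, 82.7 and 72.1 in Smc3 +/- and 65.5, 134 and 178.5 in WT, and the groups overlapped. Only WT replicate 3 and Smc3 +/- replicate 2 had more than 16 cells in cluster 6.

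**Figure D5:**
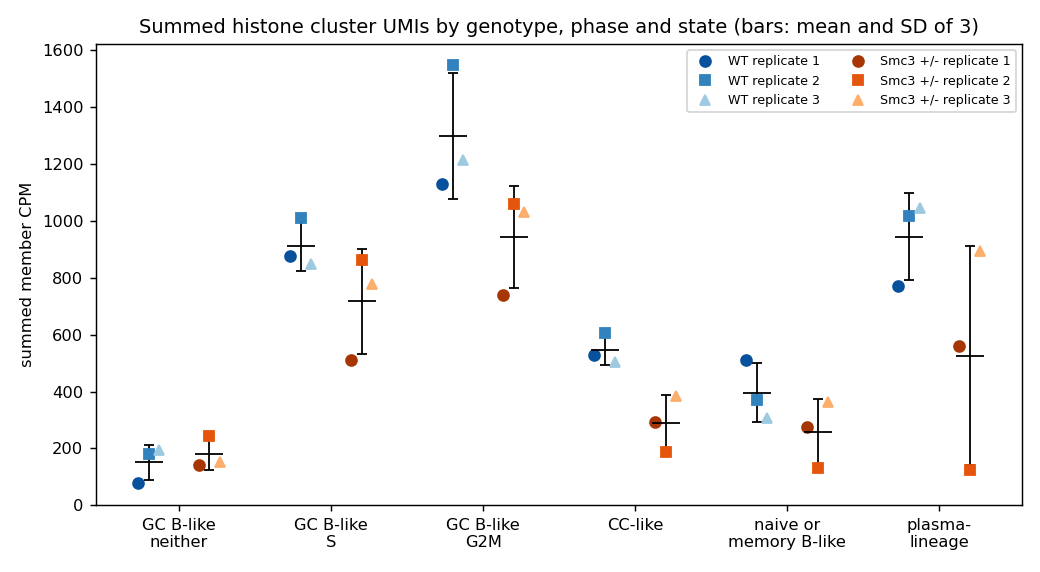
Summed level of the members in CPM (vertical axis) in GC B-like cells by phase and in CC-like, naive or memory B-like and plasma-lineage cells, WT in blue and Smc3 +/- in orange, 1 point per library with the mean and SD of 3 in black. The groups overlap in G1, in S and in naive or memory B-like cells but not in G2M or CC-like cells, and Smc3 +/- replicate 2 is far below the rest in plasma-lineage cells. Immunoglobulin UMIs are counted in the total, and H3f3b, no member, also read low there in that library (517 CPM against 1707 to 2488).

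Hist1h2ap was below every WT library in each Smc3 +/- library over all kept cells, at 127, 29.9 and 135 CPM against 325, 276 and 169. With immunoglobulin UMIs in the total, H3f3b, no member, also read low in Smc3 +/- replicate 2, at 790 CPM against 2521 to 3719 elsewhere. On the log2 scale the difference of Hist1h2ap was -1.16, with SE 0.30 and an edgeR adjusted p of 0.93. In G2M cells, 180, 296 and 190 stood against 449, 414 and 234, and the ranges overlapped (-0.66, SE 0.30, edgeR adjusted p = 1). Leaving out each library in turn gave -0.99 to -0.49 in G2M cells, and -1.04 to -0.35 around -0.62 in S cells, the smallest without WT replicate 1. In plasma-lineage cells 71.3, 9.37 and 112 stood against 160, 169 and 174, without overlap (-1.35, SE 0.40, edgeR adjusted p = 0.83). After scaling between libraries in that fit, Hist1h2ap read 50.6, 27.7 and 93.8 against 140, 143 and 148. Leaving out each library in turn gave -1.90 to -0.98. Hist1h1b in G2M cells read 154, 195 and 201 against 188, 273 and 243 (-0.33, SE 0.22, edgeR adjusted p = 1), and its estimate ran from -0.50 without WT replicate 1 to -0.17 without Smc3 +/- replicate 1, with -0.18 without WT replicate 2.

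Counting tested members with every Smc3 +/- library below every WT library, there were 13 of 58 in all kept cells (6.83% of all genes), 5 of 52 in G2M (4.74%), 2 of 43 in S (3.82%), 0 of 3 in G1 (3.92%) and 2 of 15 in plasma-lineage cells (3.24%). In S cells, 1 member had every Smc3 +/- library above. The count in S is near the background, and that in G2M rests on 5 members. Whether the step from G1 to S differed between genotypes was tested as an interaction: 0 of 23 members passed, and 2 of 8168 genes did (0.0245%). The phase make-up of GC B-like cells was alike in 5 libraries, with 34.0% to 41.2% S and 50.9% to 59.4% G2M, while Smc3 +/- replicate 2, with 331 such cells, had 30.2% and 48.6% and 21.2% in G1.

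Some ratios set both replicate 1 libraries apart from the other 4. Hist1h1e made up 4.62% of member UMIs in GC B-like cells of WT replicate 1 and 5.42% in Smc3 +/- replicate 1, against 8.02% to 9.36% in the other 4 libraries. Per Hist1h1b UMI, Hist1h1e gave 0.255 and 0.247 in the replicate 1 libraries and 0.437 to 0.495 in the others. The replacement histone genes H3f3a and H3f3b, which are no members, also shifted, with a ratio of 0.342 and 0.349 in both replicate 1 libraries and 0.565 to 0.862 elsewhere. Hist1h2ap made up 39.5% of member UMIs in WT replicate 1 and 17.7% to 27.0% in the rest. Both replicate 1 libraries were also the shallowest, and the part of depth in these ratios was not tested.

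Genes around the members were counted from 3 lists, and genes used for the phase scores were left out in comparisons of phases only. From G1 to S, where 20.6% of all genes rose and 19.0% fell, 6 of 9 tested variant histone genes rose, among them H2afz by 1.42 (SE 0.04, adjusted p = 3.3e-27) and H2afx, whose product marks DNA breaks when phosphorylated, by 1.24 (SE 0.07, adjusted p = 1.1e-18). The replacement gene H3f3b rose by 0.21 (SE 0.04, adjusted p = 1.7e-05), and H3f3a was not called (-0.06, SE 0.04, adjusted p = 0.27). Of 14 genes for synthesis, processing and decay of histone mRNA 9 rose, including Npat, the coactivator of histone genes, by 0.93 (SE 0.23, adjusted p = 0.0011). Of 15 chaperone and acetylase genes 12 rose and Cabin1 fell.

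In plasma-lineage cells these lists mostly went down. Against GC B-like cells, where 22.7% of all genes rose and 22.2% fell, 2 of 10 variant histone genes rose and 6 fell, H1f0, the linker histone of resting cells, rising by 2.40 (SE 0.19, adjusted p = 3.7e-06) and H2afx falling by 1.51 on the log2 scale (SE 0.22, adjusted p = 0.00031). Slbp was lower by -0.81 (SE 0.20, adjusted p = 0.007), within a list of which 1 rose and 9 fell of 17, and of 18 chaperone genes 0 rose and 11 fell. These counts hold phase score genes, Slbp, Casp8ap2, Chaf1b and Anp32e among those that fell. Naive or memory B-like cells were lower than CC-like cells in Slbp by -1.12 (SE 0.09, adjusted p = 1.4e-07). No gene of the 3 lists was called between genotypes.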

How the data were processed

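The deposited values were whole-number counts of UMIs per gene and cell barcode, made by the authors from 10x 3′ libraries with Cell Ranger 3.0.2 on mm10, per the file headers, the labels and the submitters' processing notes, which also name R 4.0.2 and Seurat 4.0.0. All 6 libraries, 3 WT and 3 Smc3 +/-, were grouped by their genotype labels; further wild-type libraries of the study were not analysed here. Transcripts came from the GENCODE annotation and promoters from RefSeq.

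Cells with at least 500 genes and at most 10% mitochondrial UMIs were kept, and of the remaining 21568 the 759 with the highest Scrublet scores were removed, at 0.8% per 1000 barcodes. Cells were clustered with Seurat 5.3.0 on 1859 of 2000 variable genes, leaving out clustered histone genes, immunoglobulin, mitochondrial and ribosomal protein genes, the 3 other gene lists and Smc3, with 30 components and 20 neighbours at resolution 0.5, giving 14 clusters. Clusters were named from marker lists, so class names are rebuilt and may differ from those of the study. Phases were scored with scanpy 1.11.5 on 18903 cells of at least 2000 UMIs. UMIs were summed per library and class, and sums of at least 20 cells were tested with edgeR 4.0.16 (quasi-likelihood, TMM factors, filterByExpr, Benjamini-Hochberg adjustment at 0.05 over all genes tested), with the library as a block within libraries. DESeq2 1.42.0 was an alternative, as were other size factors, no filter, other cell filters and cluster resolutions, and leaving out libraries. The scripts were tested on simulated data.

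Same-numbered libraries of the 2 genotypes correlated in their deviations from the group means with 0.233, 0.101 and 0.197 in S cells and 0.213, 0.101 and 0.104 in G1 cells, all over 0.1, so the number was taken to pair these samples. In G2M cells (0.219, 0.0924 and 0.129), all kept cells and plasma-lineage cells it was not. The genotype estimates and adjusted p-values printed for single genes come from fits without this block, in S and G1 cells too.

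The members and lists were chosen with earlier results of these data known. Named with values were Hist1h2ap, the 15 most counted members, up to 3 members that rose and 3 that fell most in each fit among those with at least 100 UMIs, the members nearest the threshold, and a fixed set from the other lists. Other members named with values (Hist1h1d, Hist1h2bg, Hist1h4c, Hist2h4 and Hist4h4) were all those called in plasma-lineage cells.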

Additional observations from a re-analysis of the deposited data

Results flagged for a closer look

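Members were also counted in clusters that no comparison used, each above the level that 3 UMIs would give in that cluster. In cluster 0, 3948 cells led by haemoglobin genes with B cell markers and without a name, they summed to 167 CPM against a limit of 0.227, with Hist1h1e leading. In myeloid-like cluster 9, 688 cells led by S100a8 and Camp, they summed to 420.9 against 1.33, with Hist1h1c, a linker histone gene, leading. Of these cells 625 came from Smc3 +/- replicate 2, and by library the members ran from 181 to 681 CPM. In T cell-like cluster 11, 530 cells, they summed to 517.9 against 2.53, with Hist1h2ap leading. In the unnamed clusters 12, 83 cells led by the interferon genes Ifit3 and Isg15, and 13, 63 cells led by C1qa and Vcam1, they summed to 324.7 and 498.5 against 8.70 and 26.2, with Hist1h2ap and Hist3h2a leading. By library, with few cells each, they ran from 116 to 477 CPM in cluster 12 and from 236 to 1657 in cluster 13. These are values without a test, and the part of free RNA from neighbouring GC B-like cells in them was not tested.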

How the results depend on the processing

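With no low-count filter, 34 members were called from G1 to S, 37 between S and G2M and 41 from G1 to G2M, against 22, 21 and 23. Leaving out one library at a time gave 20 to 31, 18 to 33 and 21 to 39, the highest without WT replicate 1 or Smc3 +/- replicate 2, and the cause was not tested. It gave 3 to 6 between naive or memory B-like and CC-like cells, and 5 to 13 between plasma-lineage and GC B-like cells, where 31 and 30 members were tested and the cause was not tested. Between S and G2M DESeq2 called 14 of 23. Cells with both scores and G2M higher had 45 members called against cells with the S score only with no filter, against 24, and 31 against cells with both scores and S higher, against 19 (12 with DESeq2). With the haemoglobin-led cluster counted as GC B-like, an alternative chosen after seeing the data, 35 members were called between S and G2M and 36 from G1 to G2M. The same alternative turned Hist3h2a from G1 to S to -0.28 and Hist1h2bc from G1 to G2M to 0.24, and the cause was not tested. Genes called over all genes then rose from 3234 to 5746 (G1 to S) and from 3632 to 5850 (G1 to G2M).

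Uncalled estimates also changed sign: Hist1h1b between genotypes in S cells ranged from -0.35 to 0.0015 when libraries were left out, and Hist1h2ac between cells with both scores and G2M higher and cells with the G2M score only ranged from -0.0063, without WT replicate 2, to 0.11. The interaction estimate of Hist1h2ap became 0.77 with phases called without thinning. Genes called between genotypes rose from 0 to 31 in G1 and 5 in plasma-lineage cells with no filter, and in S cells to 1 with DESeq2 and 2 without Smc3 +/- replicate 2. The interaction called 26 genes with no filter, 4 without immunoglobulin genes, 8 without thinning, 1 with DESeq2 and 0 to 21 without one library, against 2. With the replicate number as a block, called members stayed at 0 in all 5 genotype fits, and the median log2 fold change of tested members was -0.45 in all kept cells, -0.70 in plasma-lineage cells and 0.10 in G1. G1 had 813 cells, 47 of them in WT replicate 1, so folds of low members over G1 rest on few UMIs.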
